A study of Mus musculus with 12 samples.

Results

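The genes described here are the core cardiac transcription factors, 10 genes chosen by name: Nkx2-5, Gata4, Gata6, Tbx5, Tbx20, Hand2, Mef2a, Mef2c, Srf and Meis2. They are 10 of the 21493 genes listed for each library, and all 10 were among the 13158 genes kept by a filter on low counts. Their transcripts were counted by RNA-seq in adult heart muscle cells, cardiomyocytes, freshly isolated by enzymatic perfusion from 3-month-old mice. The mice carried intact desmin genes (Des+/+) or lacked desmin (Des-/-), and had either swum as an exercise stress (swim) or not (non-swim), which gives 4 groups of 3 libraries, 12 in all. The methods of the study state that cells of several animals were combined for every library, and a replicate here is therefore such a pool. They also use the names Des+/+ and Des-/- for mice of the 129SV background that carry a GFP reporter under the αMHC promoter, which both genotypes and so all groups would share, and the animals were used irrespective of sex.

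These factors bind one another and shared enhancers, and in the embryo they switch on the genes of contraction, conduction and calcium handling. Nkx2-5 (a homeobox factor), Gata4 and Gata6 (zinc fingers), Tbx5 and Tbx20 (T-box), Hand2 (basic helix-loop-helix) and Mef2c act early in heart formation, and most stay on in the adult. Srf and the Mef2 proteins are MADS-box factors that recognise A/T-rich elements in muscle genes, and Meis2 is a homeobox cofactor of the TALE class. Srf is made in nearly all cell types, and Gata4, Gata6, Tbx20, Mef2a, Mef2c and Meis2 are also known from non-muscle cells of the heart.

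The libraries held 4320819 to 12072443 reads in genes, with the lowest range, 4320819 to 6521963, in the Des-/- swim group. The share of uniquely aligned reads that the counter assigned to no gene moved with genotype and swimming, with means of 36.4% in Des+/+ non-swim, 47.9% in Des+/+ swim, 45.2% in Des-/- non-swim and 60% in Des-/- swim libraries. CPM below is a level, the reads of a gene brought to a common library total with TMM scaling. Des itself, the targeted gene, had 973 to 3647 CPM in Des+/+ and 50.3 to 101 CPM in Des-/- libraries. The defining cardiomyocyte markers were present in all libraries, but their level moved with genotype. The summed level of 10 such markers was 49512 to 81822 CPM in Des+/+ non-swim and 5266 to 23986 CPM in Des-/- non-swim libraries, and 25946 to 47449 and 14122 to 24249 CPM in the swim groups. The sum of 12 fibroblast markers was 6522 to 7801 against 13160 to 40202 CPM without swimming, and 5617 to 6874 against 9030 to 15468 CPM after it. Without swimming, macrophage markers (10 genes) summed to 225 to 342 CPM in Des+/+ and to 688, 419 and 4273 CPM in Des-/- libraries, replicate 3 being the highest. After swimming the sums overlapped, at 255 to 323 against 229 to 1379 CPM. None of the cardiomyocyte, fibroblast, endothelial, mural or macrophage markers was at 0 in every library. Of the atrial markers, Bmp10 was at 0 throughout. In RNA from a bulk cell preparation, fewer cells of a type and less RNA per cell cannot be told apart, and the part of this mix, or of the reads assigned to no gene, in the differences below was not tested.

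The first comparison asked how the factors differ between genotypes in animals that had not swum. Of the 10, 7 were called lower in Des-/- libraries at an adjusted p under 0.05 (edgeR quasi-likelihood test, Benjamini-Hochberg adjustment over all genes tested) and 0 were called higher. The 7 were Nkx2-5, Gata4, Gata6, Tbx5, Hand2, Mef2a and Srf. Among all 13158 genes, 18.0% were called lower and 14.0% higher. The median log2 change of the 10 factors was -0.81, and that of all genes 0.04. DESeq2 also called 7 of the 10, all lower, and 34.7% of the 13903 genes to which it gave an adjusted p. The 3 Des-/- libraries lay below all 3 Des+/+ libraries for 8 of the 10, the 7 called and Meis2, whereas the groups did not overlap, in either direction, for 47.9% of all genes. The point estimates differed in size. Nkx2-5, Tbx5 and Hand2 fell by 1.52 to 2.18 on the log2 scale. Gata4, Gata6, Srf and Mef2a fell by 0.60 to 1.02, and Tbx20, Mef2c and Meis2 were not called. The changes of different factors were not tested against each other. The 95% confidence intervals of Nkx2-5 (-2.91 to -1.46), Tbx5 (-3.17 to -0.58) and Hand2 (-2.27 to -0.78) all overlapped that of Gata4 (-1.53 to -0.51).

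**Figure D1:**
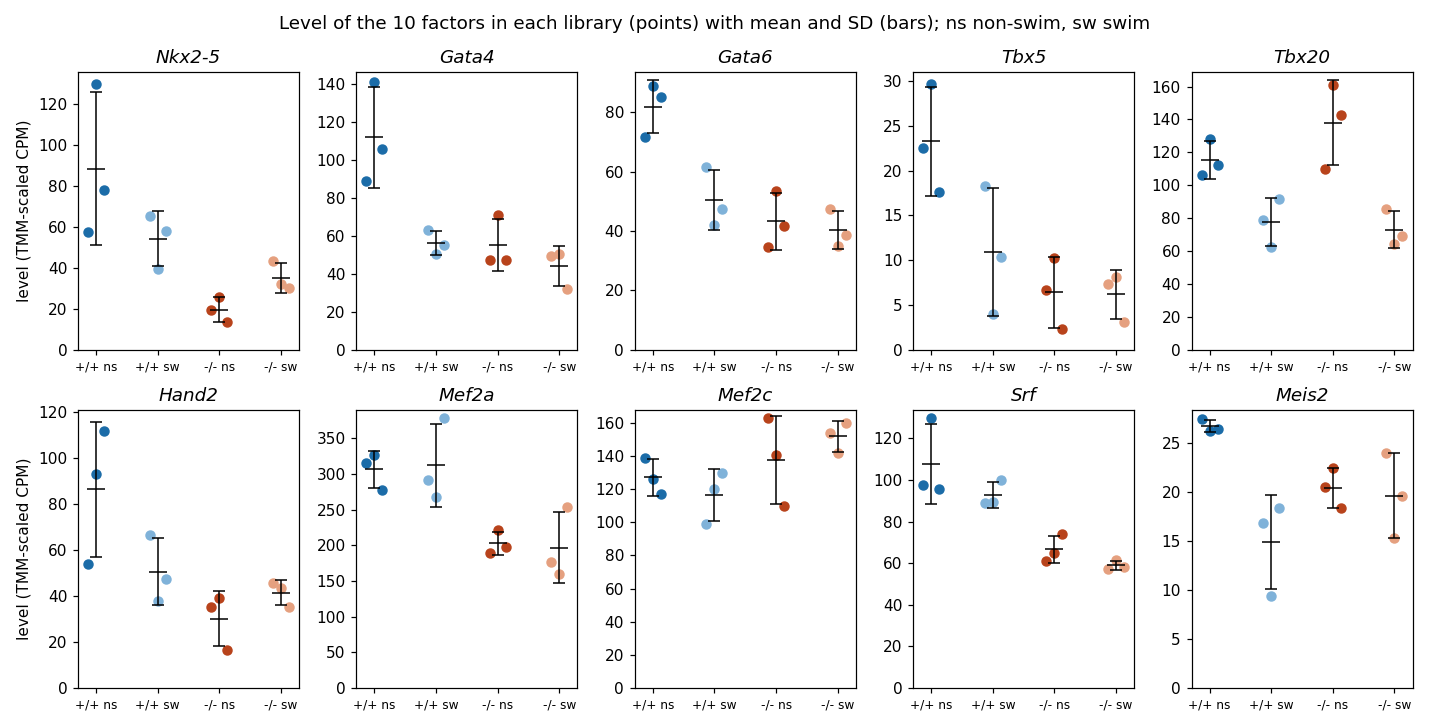
Level of each factor (TMM-scaled CPM, linear axis from 0) in the 12 libraries, with 1 point per library and the mean and SD of each group of 3. Nkx2-5 lay at 57.4 to 130 CPM in Des+/+ non-swim and at 13.6 to 25.8 CPM in Des-/- non-swim libraries, while Mef2c and Tbx20 overlapped between these groups.

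Nkx2-5, the homeobox factor needed for chamber formation and the conduction system, showed the largest decrease of the 10. Its level was 57.4, 130 and 78.1 CPM in the 3 Des+/+ non-swim libraries and 19.3, 25.8 and 13.6 CPM in the 3 Des-/- non-swim libraries. The groups were well apart, with every Des+/+ library above every Des-/- library. The means were 88.6 ± 37.6 and 19.6 ± 6.13 CPM (SD, n = 3 each), so the Des-/- mean was 22.1% of the Des+/+ mean. The log2 change was -2.18 (SE 0.33, edgeR adjusted p 0.00119), with a 95% confidence interval of -2.91 to -1.46. The highest and lowest Des-/- libraries for Nkx2-5, replicates 2 and 3, were also the highest and lowest of that group in summed cardiomyocyte markers, at 23986 and 5266 CPM.

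Hand2, a factor required for the right ventricle, was 54.1, 93.3 and 112 CPM in Des+/+ non-swim and 35.1, 39 and 16.4 CPM in Des-/- non-swim libraries. All Des-/- values were below all Des+/+ values, with replicate 3 the lowest. The log2 change was -1.52 (SE 0.34, edgeR adjusted p 0.00682). Tbx5, the factor mutated in Holt-Oram syndrome, had the fewest reads of the 10, down to 20 in its lowest library. It reached 22.6, 29.7 and 17.6 CPM in Des+/+ non-swim and 6.7, 10.2 and 2.27 CPM in Des-/- non-swim libraries. Again the groups did not overlap and replicate 3 of the Des-/- group was the lowest. The log2 change of Tbx5 was -1.87 (SE 0.59, edgeR adjusted p 0.0319), and its confidence interval, -3.17 to -0.58, was the widest of the 10. The call for Tbx5 was lost in 4 of the 12 fits that each left out 1 library, and without both replicate 3 libraries of the Des-/- groups its log2 change was -1.39 (edgeR adjusted p 0.0507).

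The GATA pair changed by similar amounts. Gata4, a zinc finger factor that activates many contractile genes together with Nkx2-5 and Tbx5, was 88.9, 141 and 106 CPM in Des+/+ non-swim and 47.3, 70.8 and 47.3 CPM in Des-/- non-swim libraries. Gata6, its paralogue, was 71.7, 88.7 and 85 CPM and 34.5, 53.4 and 41.7 CPM. For both genes every Des-/- library lay below every Des+/+ library. On the log2 scale Gata4 fell by 1.02 (SE 0.23, edgeR adjusted p 0.00729) and Gata6 by 0.92 (SE 0.19, adjusted p 0.00502), to 0.492 and 0.529 of the Des+/+ level. The transcribed regions are at GRCm38 chromosome 14, 63198922 to 63271692 on the minus strand, for Gata4 (ENSMUSG00000021944) and at chromosome 18, 11052064 to 11085635 on the plus strand, for Gata6 (ENSMUSG00000005836).

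Tbx20, a T-box factor that the adult heart muscle cell continues to need, was not called. It was 106, 128 and 112 CPM in Des+/+ non-swim and 110, 161 and 143 CPM in Des-/- non-swim libraries, overlapping groups with 2 of the 3 Des-/- libraries on top. The log2 change was 0.26 (SE 0.18, edgeR adjusted p 0.3), with an interval of -0.14 to 0.66. This value depended on scaling: with library size alone, which moved the median log2 change of all genes from 0.04 to 0.29, Tbx20 was called higher at 0.52 (adjusted p 0.0333). Meis2 was 27.5, 26.3 and 26.5 CPM in Des+/+ non-swim and 20.5, 22.5 and 18.4 CPM in Des-/- non-swim libraries. The groups of Meis2 did not overlap, but the difference of -0.39 (SE 0.23, edgeR adjusted p 0.225) did not pass the test.

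The MADS-box factors split. Srf, the factor that binds CArG boxes in actin and immediate early genes, was 97.8, 130 and 95.7 CPM in Des+/+ non-swim and 61.1, 64.8 and 74 CPM in Des-/- non-swim libraries. Mef2a, a Mef2 factor of postnatal muscle, was 316, 326 and 277 CPM and 189, 221 and 198 CPM. Neither gene overlapped between genotypes. On the log2 scale Srf fell by 0.70 (SE 0.14, edgeR adjusted p 0.00395) and Mef2a by 0.60 (SE 0.19, adjusted p 0.0331). Mef2c, by contrast, was 139, 126 and 117 CPM in Des+/+ and 163, 141 and 110 CPM in Des-/- non-swim libraries, with overlap, and its log2 change was 0.12 (SE 0.16, adjusted p 0.613; interval -0.24 to 0.47). The Mef2a call was the least stable of the 7: it was lost in 5 of the 12 fits that each left out 1 library, and with library size alone its log2 change was -0.34 (adjusted p 0.169).

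The start regions of Nkx2-5, Mef2a and Srf are shown because these 3 genes carry the largest decrease and the decreases that were called with and without swimming. Each run is the RefSeq start region of GRCm38.p6, from 250 bases before to 50 bases after the annotated start, written 5′ to 3′ on the gene's strand, in lower case with sequence motifs in capitals. Nkx2-5 (ENSMUSG00000015579) is on the minus strand of chromosome 17 at 26838664 to 26845009, with the region shown at chr17:26841516-26841815. Mef2a (ENSMUSG00000030557) is on the minus strand of chromosome 7 at 67231163 to 67372858, with the region at chr7:67372809-67373108. Srf (ENSMUSG00000015605) is on the minus strand of chromosome 17 at 46548329 to 46556175, with the region at chr17:46556113-46556412.
Nkx2-5: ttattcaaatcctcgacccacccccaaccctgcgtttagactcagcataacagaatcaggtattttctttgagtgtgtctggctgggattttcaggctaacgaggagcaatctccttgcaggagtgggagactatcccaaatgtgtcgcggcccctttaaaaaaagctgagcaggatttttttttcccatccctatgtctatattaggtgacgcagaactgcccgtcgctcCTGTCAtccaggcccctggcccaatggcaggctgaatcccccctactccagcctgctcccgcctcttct
Mef2a: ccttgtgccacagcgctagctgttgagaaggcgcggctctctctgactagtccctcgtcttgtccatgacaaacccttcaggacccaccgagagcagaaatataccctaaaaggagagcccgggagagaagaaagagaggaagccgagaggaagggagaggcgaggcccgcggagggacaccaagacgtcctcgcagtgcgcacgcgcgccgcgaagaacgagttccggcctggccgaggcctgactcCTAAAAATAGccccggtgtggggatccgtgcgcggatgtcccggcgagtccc
Srf: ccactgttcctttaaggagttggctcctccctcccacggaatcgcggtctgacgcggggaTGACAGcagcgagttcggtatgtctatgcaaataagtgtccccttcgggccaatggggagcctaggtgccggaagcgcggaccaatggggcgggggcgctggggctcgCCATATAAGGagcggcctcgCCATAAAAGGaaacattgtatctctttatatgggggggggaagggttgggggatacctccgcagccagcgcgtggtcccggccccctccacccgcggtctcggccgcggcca
The capitals mark CArG boxes (Srf), a MEF2 box (Mef2a) and TGACAG, a Meis-type element (Nkx2-5, on the opposite strand, and Srf). Both strands were searched for CArG and MEF2 boxes by their consensus. They were also searched for GATAA, bound by GATA factors, for AGGTGT, a T-box element, for TNAAGTG, bound by Nkx2-5, and for TGACAG. The E-box of basic helix-loop-helix proteins, CANNTG, was searched too and, being present in 72.3% of all start regions, was not capitalised. No 2 of the motifs overlapped in the regions of the factors.

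Srf held 2 CArG boxes, at -82 to -73 and -62 to -53 counted from the start as base 1, and Mef2a held the MEF2 box at -2 to 8. Over all 32851 RefSeq start regions of this length, 1.63% held a CArG box and 0.557% a MEF2 box. RefSeq start regions were searched for 7 of the 10 factors, 9 regions in all because Mef2c has several starts. A CArG box was in 1 of the 9 and a MEF2 box in 1. GATAA was in 2 of the 9 and in 25.4% of all regions, TGACAG in 2 and 19.2%, AGGTGT in 1 and 13.7%, and TNAAGTG in 0 and 11.5%. CANNTG was in 4 of the 9. These matches describe the letters of each window and were not tested against expression. Gata4, Gata6 and Tbx5 had no region in this search.

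Ratios between related factors within a library do not depend on how libraries are scaled. The ratio of Mef2a to Mef2c counts was 2.26, 2.59 and 2.37 in Des+/+ non-swim and 2.93, 2.23 and 2.89 in Des+/+ swim libraries. It was 1.16, 1.56 and 1.8 in Des-/- non-swim and 1.15, 1.13 and 1.58 in Des-/- swim libraries. Every Des+/+ library lay above every Des-/- library, in both swimming states. Over both swimming states the log2 ratio differed by -0.88 between genotypes (exact permutation within swimming states, two-sided, p 0.005, the smallest that 400 arrangements allow; 0.03 after adjustment over 6 tests), by -0.70 without and -1.07 after swimming. The difference was -0.96 to -0.80 when each library was left out in turn, and all 12 such tests kept an unadjusted exact p under 0.05.

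The other pairs differed less clearly. The ratio of Tbx5 to Tbx20 was 0.157 to 0.232 in Des+/+ non-swim and 0.0162 to 0.0637 in Des-/- non-swim libraries, without overlap, but 0.064 to 0.232 and 0.0456 to 0.128 after swimming, with overlap. The log2 difference between genotypes was -1.45 over both states (exact permutation p 0.025, 0.075 after adjustment), which did not pass. The ratio of Gata4 to Gata6 was 0.824 to 1.59 over all libraries and differed by -0.08 between genotypes (exact permutation p 0.58, 0.8 after adjustment). Swimming changed none of the 3 ratios past the threshold, with adjusted exact p-values of 0.19 for Gata4 to Gata6 and 0.8 for the other two.

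**Figure D2:**
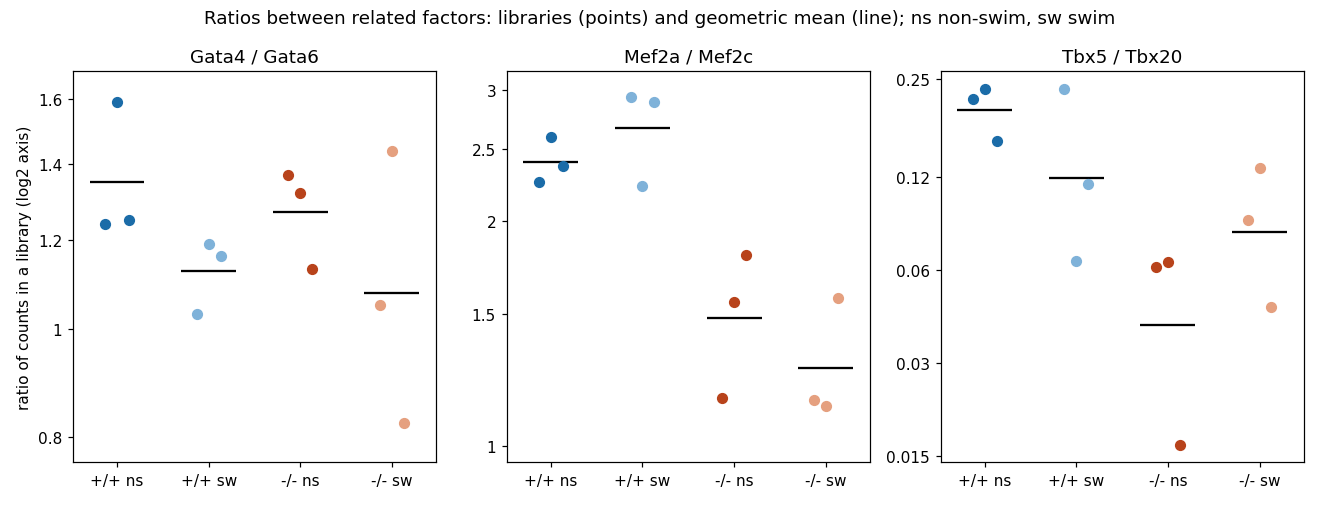
Ratio of counts between related factors in each library (log2 axis), with 1 point per library and the geometric mean of each group of 3. The Mef2a to Mef2c ratio was 2.23 or more in all Des+/+ libraries and 1.8 or less in all Des-/- libraries.

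The factors were also set against the summed cardiomyocyte markers of the same library. The marker sum differed by a log2 of -2.42 between genotypes without swimming, more than the log2 change of any of the 10 factors. A gene that fell by less than this sum comes out higher relative to it, and the median log2 change of all genes was 0.04. The direction of the values below therefore follows from the divisor and is not particular to the factors. Relative to this sum, the mean of all 10 was higher in Des-/- non-swim libraries, from 0.27 for Nkx2-5 and 0.33 for Tbx5 to 2.51 for Mef2c and 2.66 for Tbx20. On this scale the libraries of the 2 genotypes overlapped for Nkx2-5, Tbx5 and Hand2. The share of all genes that lie apart on it was not computed, so no count of separated factors is given. For Nkx2-5 the log2 ratio to the sum was -9.51 ± 0.23 in Des+/+ and -9.24 ± 0.63 in Des-/- libraries (SD, n = 3 each), a difference within the spread. After swimming the marker sum differed by -0.81 and the relative levels of the factors by 0.13 to 1.24. These are descriptions, with no test.

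The second comparison asked about the same genotypes after swimming. Here 2 of the 10 factors were called, Mef2a and Srf, both lower in Des-/- libraries, where 5.57% of all genes were called lower and 5.01% higher. DESeq2 called the same 2 of the 10 and 16.4% of the 13903 genes to which it gave an adjusted p. The median log2 change of the 10 was -0.34, against 0.02 for all genes. Srf was 89, 89.6 and 99.8 CPM in Des+/+ swim and 57.4, 61.5 and 58.2 CPM in Des-/- swim libraries, with no overlap and a log2 change of -0.65 (SE 0.14, edgeR adjusted p 0.0198). Mef2a was 291, 268 and 378 CPM and 177, 160 and 253 CPM, also without overlap, and its log2 change was -0.66 (SE 0.19, edgeR adjusted p 0.0481). The Mef2a call was lost in 10 of the 12 fits that each left out 1 library and the Srf call in 3. None of the 10 factors was called once Des+/+ swim replicate 3 or Des-/- swim replicate 1 was left out, Srf then being at -0.60 (edgeR adjusted p 0.0749) and -0.64 (adjusted p 0.0599).

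Mef2c and Meis2 had positive estimates. Mef2c was 99.2, 120 and 130 CPM in Des+/+ swim and 154, 142 and 160 CPM in Des-/- swim libraries. Its groups did not overlap, as for 35.9% of all genes, but its log2 change of 0.39 (SE 0.16, edgeR adjusted p 0.132) did not pass the test. Meis2 was 16.9, 9.42 and 18.4 CPM in Des+/+ swim and 24, 15.3 and 19.6 CPM in Des-/- swim libraries, which overlapped, with a log2 change of 0.41 (SE 0.24, adjusted p 0.268). Nkx2-5 was 65.5, 39.3 and 57.9 CPM in Des+/+ swim and 43.5, 31.9 and 30 CPM in Des-/- swim libraries, which overlapped, with a log2 change of -0.62 (SE 0.32, adjusted p 0.211). The estimates for Gata4, Gata6, Tbx5 and Hand2 were -0.36, -0.32, -0.82 and -0.28, all with intervals that included 0. The intervals of Gata4, Gata6 and Hand2 reached down to -0.87, -0.75 and -1.02, and that of Tbx5 to -2.14. For Gata4, Gata6, Tbx5 and Hand2 they overlapped the intervals without swimming. The latter were -1.53 to -0.51, -1.34 to -0.5, -3.17 to -0.58 and -2.27 to -0.78. For Nkx2-5 the intervals, -1.33 to 0.08 after and -2.91 to -1.46 without swimming, did not overlap. The difference between the 2 comparisons was itself tested, as an interaction, which edgeR called for 0 of the 10.

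**Figure D3:**
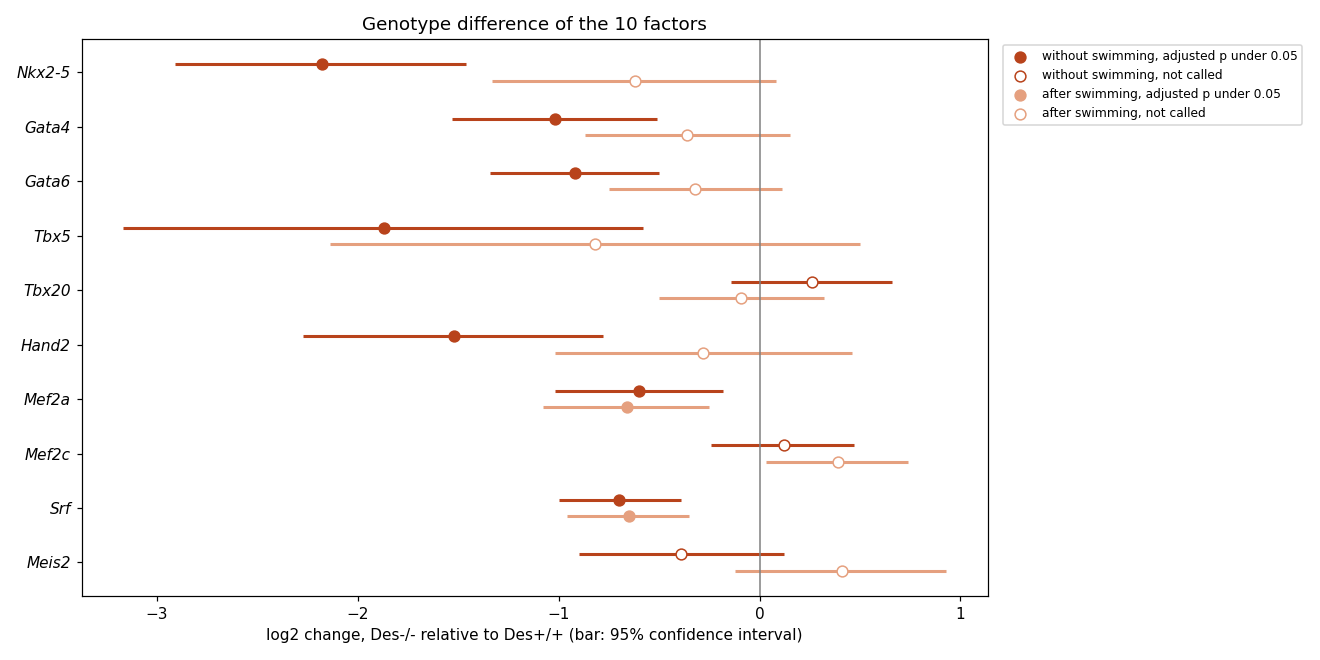
Log2 change of each factor in Des-/- relative to Des+/+ libraries without and after swimming (bars, 95% confidence intervals from the edgeR fit). Filled points passed an adjusted p of 0.05: 7 without swimming and 2, Mef2a and Srf, after it.

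The third question was how swimming itself moved the factors. In Des+/+ animals edgeR called 0 of the 10, and 0.0912% of all genes. At an unadjusted p under 0.05, 6 of the 10 passed, Nkx2-5, Gata4, Gata6, Tbx20, Hand2 and Meis2, all lower after swimming, against 20.5% of all genes in either direction. DESeq2 called 3, Gata4, Gata6 and Meis2, and 7.09% of the 11138 genes to which it gave an adjusted p. Gata4 was 63.2, 50.2 and 55.2 CPM after swimming, below all 3 non-swim libraries, at a log2 change of -0.99 (SE 0.23, edgeR adjusted p 0.0818). Meis2 was 16.9, 9.42 and 18.4 CPM and Tbx20 79, 62.6 and 91.8 CPM, again below every non-swim library, with log2 changes of -0.85 and -0.57 (edgeR adjusted p 0.111 and 0.135). The groups did not overlap for Gata4, Gata6, Tbx20 and Meis2, and for 31.3% of all genes. The summed cardiomyocyte markers were also lower in these libraries, at 25946 to 47449 CPM against 49512 to 81822 CPM.

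In Des-/- animals edgeR also called 0 of the 10 and 0.0228% of all genes. Nkx2-5 and Tbx20 passed an unadjusted p under 0.05, as did 16.7% of all genes. DESeq2 called Tbx20 alone among the 10, and 2.66% of the 12517 genes to which it gave an adjusted p. Nkx2-5 lay at 30 to 43.5 CPM after swimming and at 13.6 to 25.8 CPM without it, with a log2 change of 0.85 (SE 0.33, edgeR adjusted p 0.25). Tbx20 was 85.6, 64.1 and 69.1 CPM after swimming, below all 3 non-swim libraries, with a log2 change of -0.92 (SE 0.19, edgeR adjusted p 0.164). The swimming estimate for Tbx20 was negative in both genotypes and did not pass the edgeR test in either. The groups did not overlap for these 2 factors, and for 19.4% of all genes.

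Whether swimming acted differently by genotype was tested as an interaction. edgeR called 0 of the 10 and 0% of all genes. At an unadjusted p under 0.05, 3 of the 10 passed, Nkx2-5 at 1.56 (SE 0.45), Hand2 at 1.24 (SE 0.48) and Meis2 at 0.80 (SE 0.33), as did 16.3% of all genes, with edgeR adjusted p-values of 0.199, 0.246 and 0.276. The interaction estimate was also positive for all 10 cardiomyocyte markers (median 1.33) and negative for all 12 fibroblast and all 10 macrophage markers (medians -0.49 and -1.26), and the part of these in the values of the factors was not tested. DESeq2 called Nkx2-5 alone of the 10 (adjusted p 0.0443) and 3.96% of the 8037 genes to which it gave an adjusted p. Tbx5 was not among those genes. The mean of Hand2 was 86.3 ± 29.4 CPM without and 50.5 ± 14.6 CPM after swimming in Des+/+ libraries, and 30.1 ± 12.1 and 41.5 ± 5.4 CPM in Des-/- libraries (SD, n = 3 each). The study's own filter, read with an unadjusted p, passed 6, 2, 5, 2 and 3 of the 10 factors in the 5 comparisons in the order given here, against 32.0%, 17.6%, 10.3%, 8.61% and 13.1% of all genes.

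To compare the factors with each other, levels were divided by the length of each gene's merged exons, which overstates the transcript for genes with many isoforms such as Mef2c. In Des+/+ non-swim libraries Nkx2-5 was the most abundant, at 51.5 ± 21.9 CPM per kb (SD, n = 3), followed by Srf at 37.3 ± 6.7, Hand2 at 36.7 ± 12.5 and Gata4 at 28.7 ± 6.76. Neighbours among these 4 overlapped. Mef2a at 20.9 ± 1.75, Gata6 at 12.6 ± 1.38 and Tbx20 at 9.61 ± 0.964 each lay apart from the factor above, with all 3 libraries lower, and Mef2c at 8.11 ± 0.713 overlapped Tbx20. Tbx5 at 4.98 ± 1.3 and Meis2 at 2.22 ± 0.0513 closed the order, each apart from the one before.

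In Des-/- non-swim libraries the order had changed. Srf led at 23 ± 2.29 CPM per kb, apart from Gata4 at 14.1 ± 3.47, and Nkx2-5 stood at rank 6 with 11.4 ± 3.57. Only 2 of the 9 neighbouring pairs were apart, against 5 of 9 in Des+/+ non-swim libraries. After swimming Srf and Nkx2-5 were again the first pair in both genotypes, at 32.1 ± 2.09 and 31.6 ± 7.86 in Des+/+ and at 20.4 ± 0.736 and 20.5 ± 4.25 CPM per kb in Des-/- libraries. Tbx5 and Meis2 were the last pair in all 4 groups.

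**Figure D4:**
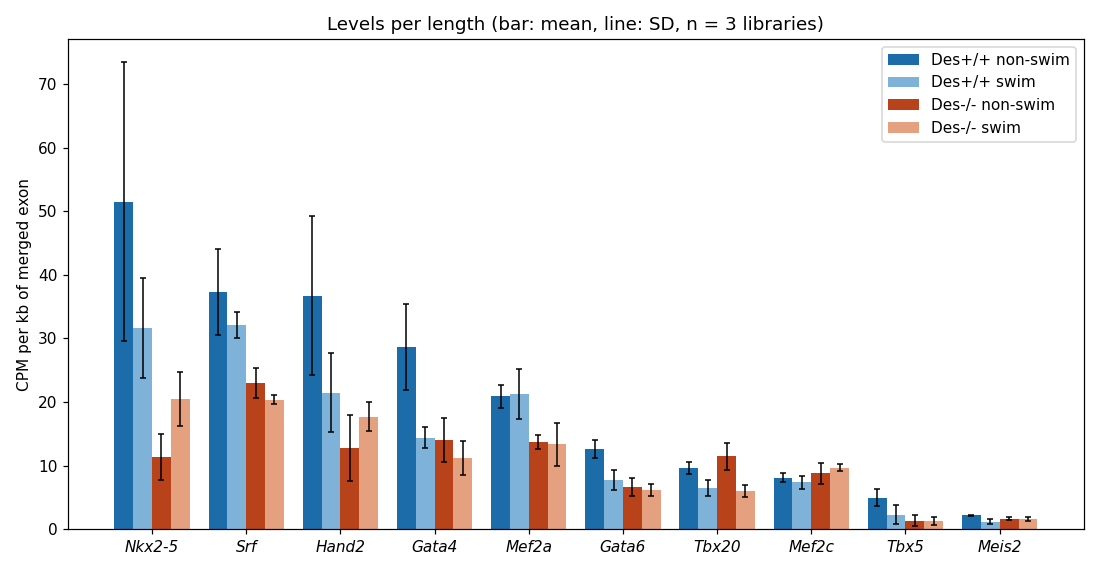
Level per kb of merged exon in each group (bars from 0, mean; lines, SD, n = 3 libraries), ordered by the Des+/+ non-swim mean. Nkx2-5 was first at 51.5 CPM per kb in Des+/+ non-swim and 11.4 in Des-/- non-swim libraries, while Tbx5 and Meis2 were lowest in every group.

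Genes that work with the factors were counted from lists of known partners and targets. Of 30 partner factors and cofactors, 26 were tested. Without swimming, Des-/- libraries had 4 of them called higher and 6 lower, where 14.0% and 18.0% of all genes were, so the list lay near the background. Its median log2 change was -0.27. The largest decreases were Hopx at -2.22 (SE 0.50), a homeodomain protein that binds Srf, Myocd at -2.05 (SE 0.44), the muscle coactivator of Srf, and Irx4 at -2.04 (SE 0.49), a ventricular Iroquois factor (edgeR adjusted p 0.00689, 0.00549 and 0.0096). Myocd fell from 26.8 ± 6.14 to 6.51 ± 4.76 CPM (SD, n = 3 each). In the other direction Gata5, a paralogue of Gata4 and Gata6, had the largest increase, 2.48 (SE 0.55, adjusted p 0.00674), on a mean of only 14.2 counts over the libraries. Tbx18 rose by 0.92 (SE 0.20), Mrtfa, the actin-sensing coactivator of Srf, by 0.90 (SE 0.19) and Nfatc4 by 0.78 (SE 0.20; adjusted p 0.00635, 0.00459 and 0.0122). After swimming 1 of the 26 was called, again Gata5, higher at 2.11 (SE 0.54, adjusted p 0.032). Gata5 was under the count needed to be named and was chosen after its values were seen. Hand1 and Isl1 were under the filter on low counts, and Tead4 was not analysed here.

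Of 22 contractile, channel and metabolic genes known as targets of these factors, 16 were called lower and 0 higher without swimming, against 18.0% and 14.0% of all genes, with a median log2 change of -1.86. Pln, the inhibitor of the calcium pump, fell by 2.76 (SE 0.48), Myh6 by 2.47 (SE 0.68) and Atp2a2, the pump itself, by 2.33 (SE 0.60; edgeR adjusted p 0.00191, 0.0171 and 0.013). This list shares Myh6, Pln and several other genes with the cardiomyocyte markers, all 10 of which were called lower in the same comparison and 1, Pln, after swimming. After swimming, against 5.57% of all genes called lower and 5.01% higher, 2 of the 22 were lower, Pln at -1.84 (SE 0.46) and Slc8a1 at -1.01 (SE 0.26), and Myl7, an atrial light chain, was higher at 3.54 (SE 0.69; adjusted p 0.0302, 0.0331 and 0.015), on a low mean level of 0.604 ± 0.546 CPM in Des+/+ swim libraries.

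The 19 targets of Srf moved both ways. Without swimming 6 were called higher and 5 lower, against 14.0% and 18.0% of all genes, with a median log2 change of -0.20. Those lower were led by muscle genes, Smyd1 at -2.53 (SE 0.49), Fhl2 at -2.21 (SE 0.41) and Tpm1 at -1.94 (SE 0.29; edgeR adjusted p 0.00348, 0.00267 and 0.00116). Those higher were led by the immediate early genes Junb at 1.79 (SE 0.31), Fos at 1.73 (SE 0.39) and Egr1 at 1.70 (SE 0.35; adjusted p 0.00182, 0.00685 and 0.00436). After swimming, where 5.01% of all genes were called higher and 5.57% lower, the same 3 were higher, Fos at 1.82, Junb at 1.74 and Egr1 at 1.51, and Vcl was lower at -0.74 (adjusted p 0.0191, 0.0125, 0.0235 and 0.0441). Immediate early genes also respond to cell isolation, and of a list of 12 such genes, which holds Fos, Junb and Egr1, 9 were called higher without and 7 after swimming, with summed levels of 1600 to 2552 against 4691 to 9252 CPM and 2046 to 2301 against 3870 to 6846 CPM. The part of isolation in these differences was not tested.

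**Figure D5:**
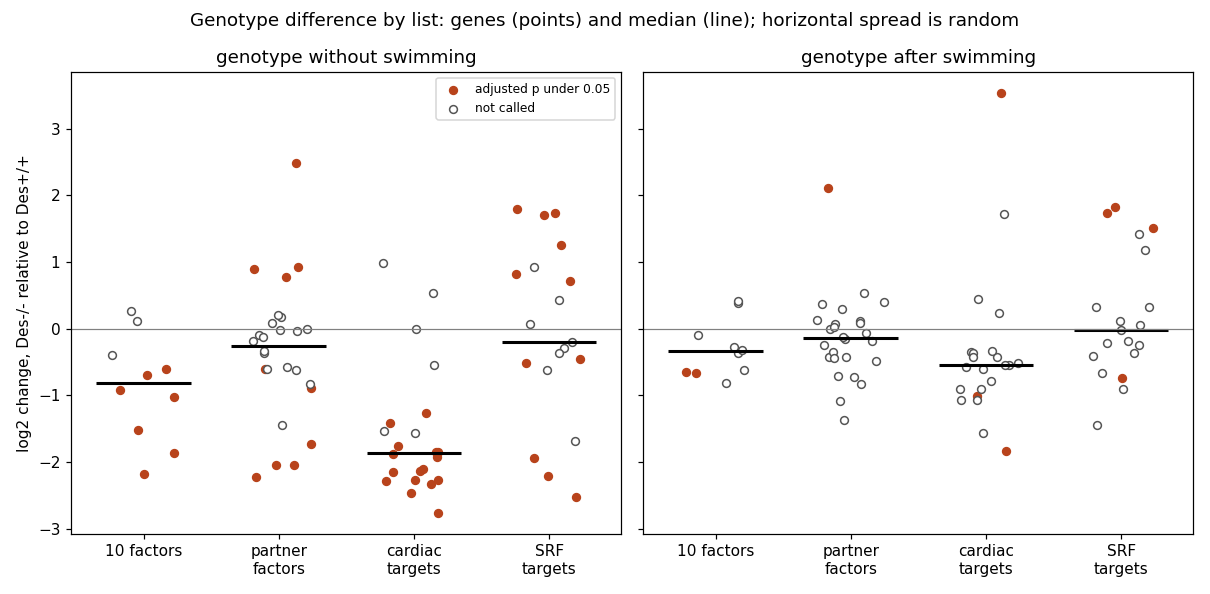
Log2 change in Des-/- relative to Des+/+ libraries for the 10 factors, 26 partner factors, 22 cardiac targets and 19 Srf targets, without (left) and after swimming (right), with 1 point per gene and the median as a line. Filled points passed an adjusted p of 0.05. Without swimming the medians were -0.81, -0.27, -1.86 and -0.20.

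The genes whose pattern over the 12 libraries was most like that of each factor were sought among the 10932 genes that averaged 50 or more counts, as the smallest root mean square (RMS) difference of log2 CPM after subtracting each gene's own mean. Nkx2-5 was nearest to Acaa2 and Uqcrc1, both mitochondrial genes, at an RMS of 0.15 and 0.174, where its own SD over the libraries was 0.9. Hand2 was nearest to Rangrf and Ndufs5 at 0.157 and 0.202, and Tbx5 to Lmod3 and Mlf1 at 0.352 and 0.367. Smaller differences by this measure were those of Srf with Eif4g1 at 0.08, and of Mef2c with Myo6 at 0.079 and Ccdc66 at 0.091. The RMS depends on how much a gene moves, and the own SD was 0.38 for Srf and 0.22 for Mef2c against 1.12 for Tbx5. A smaller RMS is therefore not read as a closer likeness. Gata4 was nearest to Kremen1 and Obsl1, Gata6 to Pigu and Cd99l2, Mef2a to Tm2d1 and Ube2d3, Tbx20 to Bace1 and Atic, and Meis2 to Riox2 and Cdpf1, with RMS values of 0.114 to 0.223.

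No factor had another of the 10 among its 2 nearest genes. Factors that were each other's nearest among the 10 were Mef2a with Srf, Gata4 with Gata6, Tbx20 with Meis2 and Nkx2-5 with Hand2. Their RMS values were 0.217, 0.238, 0.364 and 0.368 and, as above, do not rank the pairs by likeness. Gata6 was the 27th nearest gene to Gata4, whereas the member nearest to Mef2c, Meis2, ranked 5815 of the 10932. The 12 libraries differ by genotype, swimming, depth and cell mix together, and these likenesses carry no test.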

How the data were processed

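Poly-A RNA of isolated cardiomyocytes was sequenced as single-end reads in 12 libraries, grouped by the sample labels into 4 groups of 3. The deposited files hold raw gene counts without normalisation. The authors aligned reads to the mouse build GRCm38 (mm10) with HISAT2 2.2.1, sorted them with SAMtools 1.13 and counted them by reverse strand with HTSeq-count (versions from the submitters' processing notes). A directional library kit is named in the study's methods, an unstranded kit in the labels. Gata6, Hand2, Mef2a and Srf overlap annotated genes on the opposite strand, so their counts rest on strand being kept. On the same strand Mef2a also overlaps Gm44667 and Gm44668, and Srf overlaps Mir6976, which strand does not separate. The effect of these overlaps on the counts was not tested.

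For the present report the counts were tested with edgeR 4.0.16 in R 4.3.3 (filterByExpr, TMM scaling, quasi-likelihood test on 4 group means over the 12 libraries, 8 residual degrees of freedom, Benjamini-Hochberg over 13158 genes, called at an adjusted p under 0.05; common biological coefficient of variation 0.271) and DESeq2 1.42.0 as an alternative. The standard error is the log2 change over the square root of F. Replicate libraries differed beyond sampling noise and were all kept. P-values measure the spread between pools of animals. Paralogue ratios (0.5 counts added) were tested by exact permutation within strata over 400 arrangements. Levels per length are CPM per kb of merged GENCODE M21 exons, and start regions are RefSeq sequences. Figures were drawn with matplotlib. The procedure was tested on simulated data. Intervals cover the spread fitted between libraries, and at the shallowest depth precision is limited for Tbx5 most.

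The 10 factors, the lists of partners and targets and the marker lists were chosen with earlier results of these data known, so their counts are descriptions and were not tested as sets. Of the lists, the text names up to 3 called genes in each direction averaging 20 or more counts, and the 2 nearest genes of each factor; an item of these that is withheld is not reported here. Marker lists were fibroblast, endothelial, mural, macrophage, epicardial and atrial genes, and genes of the response to isolation. Of these, 0 of 10 endothelial and 0 of 5 tested epicardial markers were called in either genotype comparison, 1 of 8 mural markers was lower without swimming, and 8 of 10 macrophage markers were higher without and 0 after it. Among 5 tested atrial markers 1 was higher and 1 lower without and 2 higher after swimming, and 11 of 12 fibroblast markers were higher without and 3 after it. Alternatives were other scalings and filters, DESeq2, only the libraries compared, a replicate block, the study's filter, and leaving out libraries. Replicate numbers paired libraries only for swimming in Des-/- animals, where same-numbered libraries deviated together (r = 0.36, 0.32 and 0.60).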

Additional observations from a re-analysis of the deposited data

How the results depend on the processing

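The 7 decreases without swimming kept their direction under all alternatives run, and 5 to 7 factors were called when each library was left out, Tbx5 and Mef2a being those lost. Mef2a was not called with upper-quartile scaling (adjusted p 0.0607) or with no filter on low counts (0.0561), leaving 6, or with library size only, where Tbx20 was called higher, and Tbx5 with both Des-/- replicate 3 libraries left out. After swimming 1 factor, Srf, was called in place of 2 with upper-quartile scaling, with library size only, with no filter on low counts, with genes averaging 50 or more counts and with only the libraries compared, and 0 to 2 when each library was left out. Upper-quartile scaling and library size only moved the median log2 change of all genes without swimming from 0.04 to 0.14 and 0.29, and after swimming from 0.02 to 0.12 and 0.17. For swimming in Des+/+ animals the count of 0 became 3 with DESeq2, 5 with the study's filter, and 1, Gata4, with only the libraries compared or with both Des-/- replicate 3 libraries left out; leaving out single libraries gave 0. For swimming in Des-/- animals it became 1 with DESeq2 and 2 with the study's filter, and for the interaction 1 and 3. The cause of these changes was not tested. The share of all genes called is given above for DESeq2 and the study's filter. For the other alternatives it is not given here, so their counts of factors have no background beside them.

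With the replicate number as a block (replicate block), 1 factor in place of 2 was called for genotype after swimming, where the numbers did not pair the libraries. The counts of the other comparisons were as without the block, among them 0 for swimming in Des-/-, where the numbers did pair them.

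Values that changed sign were near 0 in the main fit. With library size only, Tbx20 after swimming was 0.06 and the Srf interaction -0.07, and the latter was -0.01 with no filter. Mef2c for swimming in Des-/- was -0.02 with both Des-/- replicate 3 libraries left out. Over the fits that each left out 1 library, the log2 change of Mef2c without swimming was -0.03 to 0.26, that of Tbx20 after swimming -0.23 to 0.04, that of Mef2a for swimming in Des+/+ -0.13 to 0.12, and those of Gata6, Tbx5, Mef2a and Meis2 for swimming in Des-/- -0.24 to 0.08, -0.45 to 0.47, -0.26 to 0.09 and -0.23 to 0.09. The interaction was -0.29 to 0.09 for Mef2a and -0.11 to 0.12 for Srf. Log2 ratios were -0.18 to 0.02 (genotype) and -0.36 to -0.16 (swimming) for Gata4 to Gata6, -0.13 to 0.03 (swimming) for Mef2a to Mef2c, and -1.67 to -1.12 (genotype) and -0.19 to 0.36 (swimming) for Tbx5 to Tbx20. With 3 pools a group and 20 reads of Tbx5 in its lowest library, depth limits that gene most.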
